A study of Mus musculus with 12 samples.

Results

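The comparison described here is that of LSD1cKO with LSD1WT preosteoclasts grown from the femur marrow of mice without ligatures. It rests on 4 of the 12 libraries of the series, 2 of each genotype, which were chosen by their sample labels and not by any measured value. LSD1cKO mice carry a floxed LSD1 gene (Kdm1a) and LysM-Cre, a recombinase driven by the Lyz2 promoter in cells of the myeloid lineage, so that any other cell type in the cultures keeps the gene, and LSD1WT mice are their controls with intact LSD1. All mice were female, aged 2 months by the series description and 3 months by the study's sequencing methods. Marrow was cultured for 2 days with M-CSF and RANKL, the cytokines that keep osteoclast precursors alive and drive them towards osteoclasts, and polyA RNA of the whole culture was sequenced, so that the cells are preosteoclasts in bulk and not a sorted population. The other 8 libraries come from the femur and the mandible of mice that wore molar ligatures for 7 days. Each library of the unligated femur is labelled as a mouse of its own. Unless stated, p values use a spread shared over all 12 libraries, and not that of these 4 alone. By their labels 3 of the ligated mice gave both a femur and a mandible library, which are treated as independent.

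LSD1 is a histone demethylase that works in repressor complexes with CoREST proteins and histone deacetylases, and the transcription factors GFI1 and GFI1B bring it to DNA. Osteoclasts arise when macrophage-like precursors switch on NFATc1, fuse into multinucleated cells and secrete acid, cathepsin K and matrix metalloproteinases onto bone. Type I interferons act through the receptor IFNAR, the kinases JAK1 and TYK2 and a transcription factor complex that holds STAT2 and IRF9 and binds the interferon-stimulated response element, and they are known to restrain osteoclast differentiation.

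The genes that separated the genotypes in every library included many interferon-stimulated genes, and the upstream sequences of 5 of them are shown as examples. Each is the 250 bases before the RefSeq gene start (build GRCm38.p6), written 5′ to 3′ on the strand of the gene. Capitals mark every match to GAAANNGAAA, searched on both strands, where overlapping matches merge into 1 run in capitals. The windows lie at chr4:156200819-156201068 (minus strand) for Isg15, chr19:34640639-34640888 (plus strand) for Ifit1, chr3:142620413-142620662 (plus strand) for Gbp2, chr5:92348890-92349139 (minus strand) for Cxcl10 and chr7:141266425-141266674 (minus strand) for Irf7.
Isg15: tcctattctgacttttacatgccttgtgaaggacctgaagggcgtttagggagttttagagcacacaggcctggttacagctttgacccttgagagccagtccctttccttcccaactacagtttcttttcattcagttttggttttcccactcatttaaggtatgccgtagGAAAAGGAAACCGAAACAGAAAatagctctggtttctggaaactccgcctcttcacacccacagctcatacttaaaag
Ifit1: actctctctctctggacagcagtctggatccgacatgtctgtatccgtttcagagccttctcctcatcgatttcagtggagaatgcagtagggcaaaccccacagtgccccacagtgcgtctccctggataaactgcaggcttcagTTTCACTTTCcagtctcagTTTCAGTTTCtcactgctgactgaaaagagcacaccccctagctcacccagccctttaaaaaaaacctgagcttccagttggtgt
Gbp2: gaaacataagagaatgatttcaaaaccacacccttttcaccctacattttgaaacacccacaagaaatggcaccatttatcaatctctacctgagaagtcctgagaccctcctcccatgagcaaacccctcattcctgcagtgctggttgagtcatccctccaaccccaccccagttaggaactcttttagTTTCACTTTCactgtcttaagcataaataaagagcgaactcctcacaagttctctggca
Cxcl10: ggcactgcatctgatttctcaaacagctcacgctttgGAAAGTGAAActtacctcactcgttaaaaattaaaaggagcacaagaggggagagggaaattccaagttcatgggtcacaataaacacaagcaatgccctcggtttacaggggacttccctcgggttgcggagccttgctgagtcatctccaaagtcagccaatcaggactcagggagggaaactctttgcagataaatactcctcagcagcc
Irf7: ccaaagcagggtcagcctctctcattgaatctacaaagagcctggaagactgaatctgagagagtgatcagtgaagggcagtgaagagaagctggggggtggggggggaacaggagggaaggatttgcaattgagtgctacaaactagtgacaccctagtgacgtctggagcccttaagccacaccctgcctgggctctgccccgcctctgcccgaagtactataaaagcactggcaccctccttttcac
Isg15, which encodes a ubiquitin-like modifier, held 3 overlapping matches between 78 and 57 bases before the start, and Ifit1, whose protein binds viral RNA, held 2. Gbp2, which encodes a guanylate-binding protein, held 1 match that ends 50 bases before the start, and Cxcl10, a chemokine gene, held 1 that ends 204 bases before it. The window of Irf7, which encodes a transcription factor of the interferon response, held none, which says only that these letters are not in that window. The windows of Ifit2, Isg20, Oasl1 and Slfn1, other members of the interferon list that are not shown, held none either. The same letters occurred in 3.0% of the 32851 RefSeq promoter windows of that length. A share over the interferon list cannot be set against it, because only 36 of its 50 genes had a window, under the 80% such a check needs, and 20 of those 36 held a match.

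Kdm1a was measured first, as a check of the labels. Its level, in CPM (counts scaled to the library's TMM-adjusted total), was 61.2 and 68.4 in LSD1WT replicates 1 and 2 and 20.3 and 16.9 in LSD1cKO replicates 1 and 2. Both LSD1cKO libraries lay below both LSD1WT libraries, with a log2 fold change of -1.80 ± 0.18 (SE, n = 2 and 2) and an adjusted p of 0.0879 in edgeR. The transcript that remained in LSD1cKO was not resolved by exon. Total counts were 25022908 to 28973436 in the 4 libraries, a count of 0 allows up to 3 counts or 0.107 to 0.124 CPM, and 4 genes of the Y chromosome (Uty, Kdm5d, Ddx3y, Eif2s3y) had no count in any of the 12 libraries.

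The LSD1WT libraries did not resemble each other. Ctsk (cathepsin K) was at 7875 and 17.1 CPM in LSD1WT replicates 1 and 2, and Mmp9, a matrix metalloproteinase, was at 17607 and 74.4. Stab1, a scavenger receptor of macrophages, went the other way, at 150.3 and 4237 CPM. LSD1WT replicate 2 thus held few osteoclast transcripts and many macrophage transcripts, although its Kdm1a level was that of LSD1WT. Between the 2 LSD1WT libraries 35.2% of the 15425 genes tested were over 2-fold apart, against 18.6% between the 2 LSD1cKO libraries. The LSD1WT pair had a biological coefficient of variation of 0.664 and the LSD1cKO pair one of 0.357. The share of mitochondrial counts was 4.27% and 1.66% in LSD1WT and 2.14% and 5.38% in LSD1cKO. The ligated femur had the same split between its LSD1WT libraries, with Ctsk at 7599 and 5.90 CPM, and the replicate differences of the 2 LSD1WT pairs had a correlation of 0.780 across genes, which are not independent replicates. For this reason each LSD1WT library is shown singly below, always with replicate 1 before replicate 2, and where CPM values are joined by the word against, the LSD1WT pair stands before it and the LSD1cKO pair after it.

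With this spread no gene passed an adjusted p of 0.05 in edgeR's quasi-likelihood test, in either direction (0 of 15425, 0%). The smallest adjusted p was 0.0879, reached by Kdm1a and by 4 genes that were higher in LSD1cKO, which are Sirpb1c, Bst1, Ly6a and Spn. Bst1, which encodes an ADP-ribosyl cyclase of the cell surface, was at 8.25 and 3.93 CPM in LSD1WT and 53.6 and 54.8 in LSD1cKO, and Spn, which encodes the leukocyte sialoglycoprotein CD43, was at 30.9 and 27.4 against 166 and 115 CPM. Bst1 was named after its values were seen. At an unadjusted p under 0.05 there were 557 genes higher in LSD1cKO (3.61%) and 206 lower (1.34%). With the 4 unligated femur libraries fitted alone in edgeR, 257 were higher and 30 lower at that p. The smallest adjusted p was then 0.763.

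The count of calls depended on the method and on the LSD1WT replicate 2 libraries. DESeq2 called 122 genes (0.791%), 116 higher and 6 lower in LSD1cKO, and 98 of the higher and 4 of the lower were at least 2-fold outside both LSD1WT libraries. With the replicate 2 LSD1WT libraries of both femur conditions left out, a setting chosen after seeing the data, edgeR called 396 of 16008 genes (2.47%), of which 342 were higher and 54 lower. That fit has 1 LSD1WT library in each femur condition and assumes that it varies like the other groups. With LSD1WT replicate 1 of the unligated femur left out instead, 16 genes were called, 13 higher and 3 lower.

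The 4 libraries were therefore compared by whether the genotypes overlapped. Both LSD1cKO libraries were above both LSD1WT libraries in 1515 genes (9.82%) and below both in 1325 genes (8.59%). At least 2-fold separation, meaning that the lowest library of the higher genotype was at least 2-fold above the highest library of the other, was found in 279 genes higher in LSD1cKO (1.81%) and in 22 genes lower in LSD1cKO (0.143%). Of the 279 genes, 252 had an unadjusted p under 0.05 in edgeR, and of the 22 genes 17 did. These p values come from the libraries that chose the genes, so that they are no separate support. In 4649 genes (30.1%) both LSD1cKO libraries fell inside the range of the 2 LSD1WT libraries.

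Ly6a, which encodes the surface antigen Sca-1 of stem cells and of interferon-treated leukocytes, had the widest separation of the genes higher in LSD1cKO. Its level was 6.34 and 6.96 CPM in LSD1WT and 141 and 187 CPM in LSD1cKO. The lowest LSD1cKO library was 20.3-fold above the highest LSD1WT library, and the log2 fold change was 4.63 ± 0.57 (adjusted p = 0.0879, edgeR). Ly6i, a neighbouring gene of the same family, was at 0.687 and 0.0414 CPM in LSD1WT and 5.27 and 5.06 CPM in LSD1cKO. Reads of near-identical Ly6 copies may be shared between such genes, so that their separate levels are uncertain.

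Gfi1b encodes a zinc-finger repressor that recruits LSD1. Its level was 4.05 and 0.0828 CPM in LSD1WT and 46.6 and 41.8 CPM in LSD1cKO, where the lowest LSD1cKO library was 10.3-fold above the highest LSD1WT library. Its adjusted p was 0.710 with the 12 libraries in edgeR, 0.0447 in DESeq2 and 0.00942 in edgeR without the LSD1WT replicate 2 libraries. The related Gfi1 was low in all 4 libraries, at 0.267 and 0.248 CPM in LSD1WT and 0.428 and 0.330 CPM in LSD1cKO. Of the 15 genes on the list of LSD1 and its partners, Gfi1b and Gfi1 were above both LSD1WT libraries (2 genes, all genes 9.82%) and 4 were below both (8.59%). Kdm1b, the other histone demethylase of this family, was 1 of these 4, at 31.1 and 26.3 CPM in LSD1WT and 23.0 and 19.8 CPM in LSD1cKO. Rcor1, which encodes the scaffold protein CoREST, overlapped between genotypes at 91.3 and 101.3 against 122 and 72.4 CPM.

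Zbtb32, which encodes a zinc-finger repressor found in lymphocytes, had 1 count in each LSD1WT library and reached 2.102 and 3.41 CPM in LSD1cKO. The LSD1WT level lay within the 3 counts that a count of 0 allows, so that no fold is given. Slc6a4, the serotonin transporter gene, was at 5.19 and 0 CPM in LSD1WT and 97.7 and 96.9 CPM in LSD1cKO. Nox1, a gene of an NADPH oxidase that makes superoxide, was at 0.955 and 0.166 against 8.20 and 9.46 CPM. In these 3 genes the LSD1cKO libraries lay close together.

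Armcx2 was at 2.86 and 0.745 CPM in LSD1WT and 37.3 and 27.9 CPM in LSD1cKO, a log2 fold change of 4.17 ± 0.62 (adjusted p = 0.182, edgeR). Ceacam19, a gene of the carcinoembryonic antigen family of adhesion molecules, was at 1.72 and 0.0828 against 11.8 and 17.2 CPM. Sirpb1c and Sirpb1a encode signal-regulatory proteins of myeloid cells that pair with the activating adaptor DAP12. Sirpb1c was at 3.97 and 3.06 CPM in LSD1WT and 35.4 and 45.4 CPM in LSD1cKO, and Sirpb1a at 1.53 and 1.82 against 13.2 and 13.9 CPM. The Sirpb1 copies are near-identical, so that the split of reads among them is uncertain. Slfn1 and Isg20, which complete the 12 genes, are members of the interferon list.

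**Figure D1:**
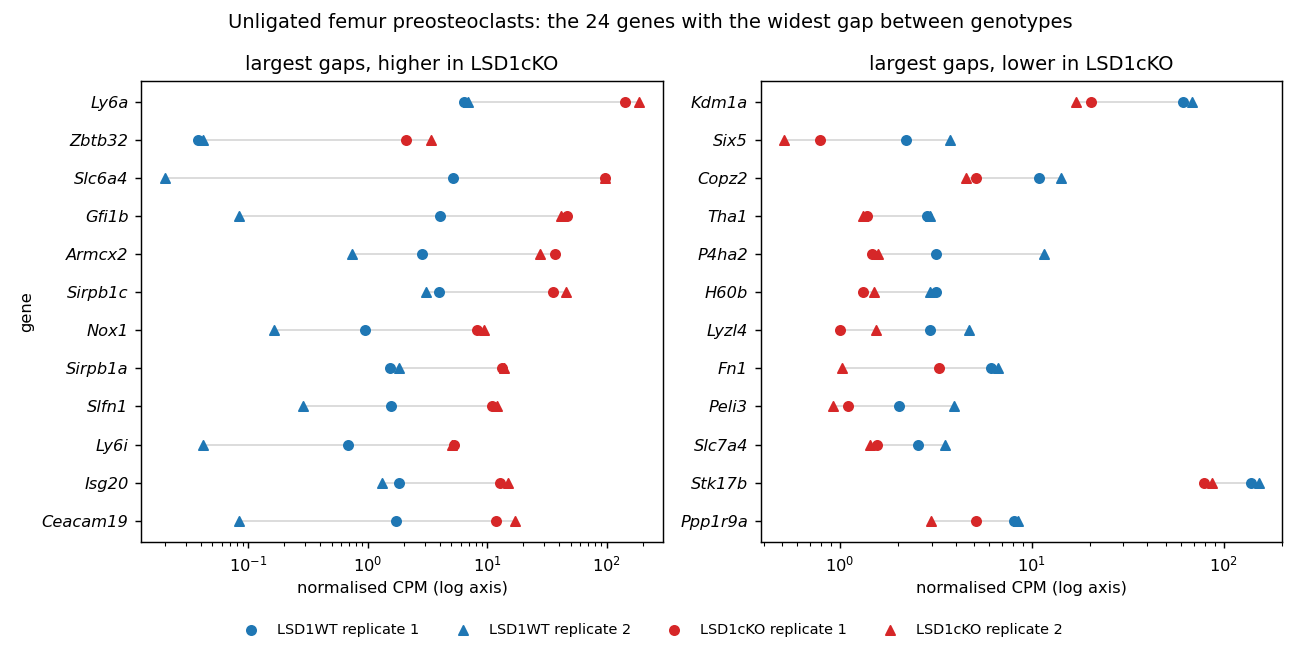
Normalised CPM on a log axis of the 24 genes with the widest separation between genotypes, 12 higher (left) and 12 lower (right) in LSD1cKO. Blue symbols are the LSD1WT libraries, red symbols the LSD1cKO libraries, circles replicate 1 and triangles replicate 2, and a library at 0 is drawn at 0.02 CPM. Ly6a sits at 6.34 and 6.96 CPM in LSD1WT and 141 and 187 in LSD1cKO, and the separations on the right are narrower than those on the left.

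Among the genes lower in LSD1cKO with at least 2 CPM in both LSD1WT libraries, Kdm1a had the widest separation, with its lowest LSD1WT library 3.02-fold above its highest LSD1cKO library. Six5, which encodes a homeobox transcription factor, was at 2.21 and 3.73 CPM in LSD1WT and 0.784 and 0.513 CPM in LSD1cKO. Copz2, a coat protein gene of Golgi vesicles, was at 10.9 and 14.2 against 5.13 and 4.54 CPM, and Tha1, a threonine aldolase gene, at 2.83 and 2.94 against 1.39 and 1.32 CPM. Six5 and Copz2 were called lower by DESeq2 (adjusted p = 0.0167 and 0.03998), and Tha1 was not (0.306).

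P4ha2, which encodes a collagen prolyl hydroxylase subunit, was at 3.17 and 11.51 CPM in LSD1WT and 1.46 and 1.58 CPM in LSD1cKO, with LSD1WT replicate 2 far above the other 3 libraries. H60b, a ligand gene of the NKG2D receptor of natural killer cells, was at 3.17 and 2.94 against 1.32 and 1.503 CPM, with each pair close together. Fn1 (fibronectin) was at 6.11 and 6.63 CPM in LSD1WT and 3.28 and 1.03 CPM in LSD1cKO. The other genes of this group, Lyzl4, Peli3, Slc7a4, Stk17b and Ppp1r9a, had a lowest LSD1WT library 1.57 to 1.91-fold above their highest LSD1cKO library. Stk17b, a death-associated protein kinase gene, was the most abundant of them, at 138 and 152 CPM in LSD1WT and 78.5 and 86.7 CPM in LSD1cKO.

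Interferon-stimulated genes were higher in LSD1cKO than in either LSD1WT library. Their summed level was 1524 and 2665 CPM in LSD1WT replicates 1 and 2 and 5766 and 6174 CPM in LSD1cKO. All 50 list members were tested, and the mean log2 CPM of the LSD1cKO libraries was higher than that of each LSD1WT library in all 50. In 44 of the 50 both LSD1cKO libraries were above both LSD1WT libraries, where 9.82% of all genes tested were, and 26 of the 50 were at least 2-fold above both, where 1.81% of all genes were. The list's median log2 fold change was 1.75, beside -0.05 over all genes tested. None passed an adjusted p of 0.05 in edgeR. At an unadjusted p under 0.05 in edgeR 29 were higher, where 3.61% of all genes were. DESeq2 called 8 (all genes 0.791%), which are Ifi35, Ly6e, Irf7, Gbp3, Isg15, Isg20, Oasl1 and Slfn1.

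Among transcription factors of the pathway, Irf7, which amplifies interferon production, was at 30.2 and 39.7 CPM in LSD1WT and 168 and 289 CPM in LSD1cKO. Stat2 (40.1 and 119.6 against 115 and 145 CPM) and Irf9 (39.9 and 76.7 against 72.3 and 93.9 CPM) overlapped between genotypes. In both of these it was LSD1WT replicate 2 that reached the LSD1cKO levels.

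Among antiviral effectors, Isg15 was at 12.9 and 10.2 CPM in LSD1WT and 55.4 and 76.3 CPM in LSD1cKO, a log2 fold change of 2.51 ± 0.63 (adjusted p = 0.554 in edgeR and 0.0181 in DESeq2). Ifit1 was at 17.1 and 11.1 CPM in LSD1WT and 95.2 and 68.7 CPM in LSD1cKO. Rsad2, which encodes viperin, was at 24.3 and 18.7 against 102 and 72.1 CPM. In all 3 genes the lowest LSD1cKO library was above the highest LSD1WT library by 2.97-fold or more. Mx1, a dynamin-like GTPase gene, was at 10.3 and 8.57 CPM in LSD1WT and 19.8 and 43.4 CPM in LSD1cKO, with replicate 2 the higher LSD1cKO library.

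Ly6e, a surface protein gene that blocks entry of some viruses, was the most abundant of the genes DESeq2 called on this list, at 183 and 225 CPM in LSD1WT and 843 and 887 CPM in LSD1cKO. Its log2 fold change was 2.08 ± 0.35 (adjusted p = 0.237 in edgeR and 1.03e-05 in DESeq2). Usp18, the protease that removes ISG15 and dampens interferon receptor signalling, was at 9.13 and 7.58 against 39.8 and 55.2 CPM. Zbp1, a sensor of Z-form nucleic acids, was at 8.29 and 8.57 against 43.1 and 67.5 CPM. In these 3 genes the pairs of the 2 genotypes did not overlap.

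The list holds several genes of the 2'-5'-oligoadenylate synthetase family, whose enzymes activate RNase L. Oasl1 was at 6.49 and 5.14 CPM in LSD1WT and 38.9 and 51.7 CPM in LSD1cKO, and Oas1g at 9.09 and 12.3 against 32.0 and 88.4 CPM. Oas2 overlapped, at 38.3 and 64.0 against 61.7 and 234 CPM, where LSD1cKO replicate 1 was just below LSD1WT replicate 2. The Oas1 copies and the pair Ifit3 and Ifit3b are near-identical genes, and reads may be split among them.

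The list also holds genes of guanylate-binding proteins and immunity-related GTPases, which act against intracellular microbes. Gbp2 was at 14.5 and 9.15 CPM in LSD1WT and 87.3 and 35.4 CPM in LSD1cKO, Gbp3 at 16.3 and 7.08 against 58.8 and 43.5 CPM, and Irgm1 at 39.6 and 65.2 against 147 and 146 CPM. Slfn1, a Schlafen gene, was at 1.57 and 0.290 CPM in LSD1WT and 11.05 and 11.99 CPM in LSD1cKO, and Isg20, an exonuclease gene, at 1.83 and 1.33 against 12.8 and 15.1 CPM. Cxcl10, the interferon-induced chemokine, was at 13.5 and 1.04 against 54.3 and 34.5 CPM, with the lowest value in LSD1WT replicate 2.

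The 6 list members that overlapped between genotypes were Eif2ak2, Irf9, Stat2, Bst2, Oas2 and Ifi27l2a, and in each of them LSD1WT replicate 2 was the higher LSD1WT library. The list's median log2 fold change was 1.46 without LSD1WT replicate 1 of the unligated femur and 2.01 without replicate 2. It was also 2.01 without the LSD1WT replicate 2 libraries of both femur conditions.

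**Figure D2:**
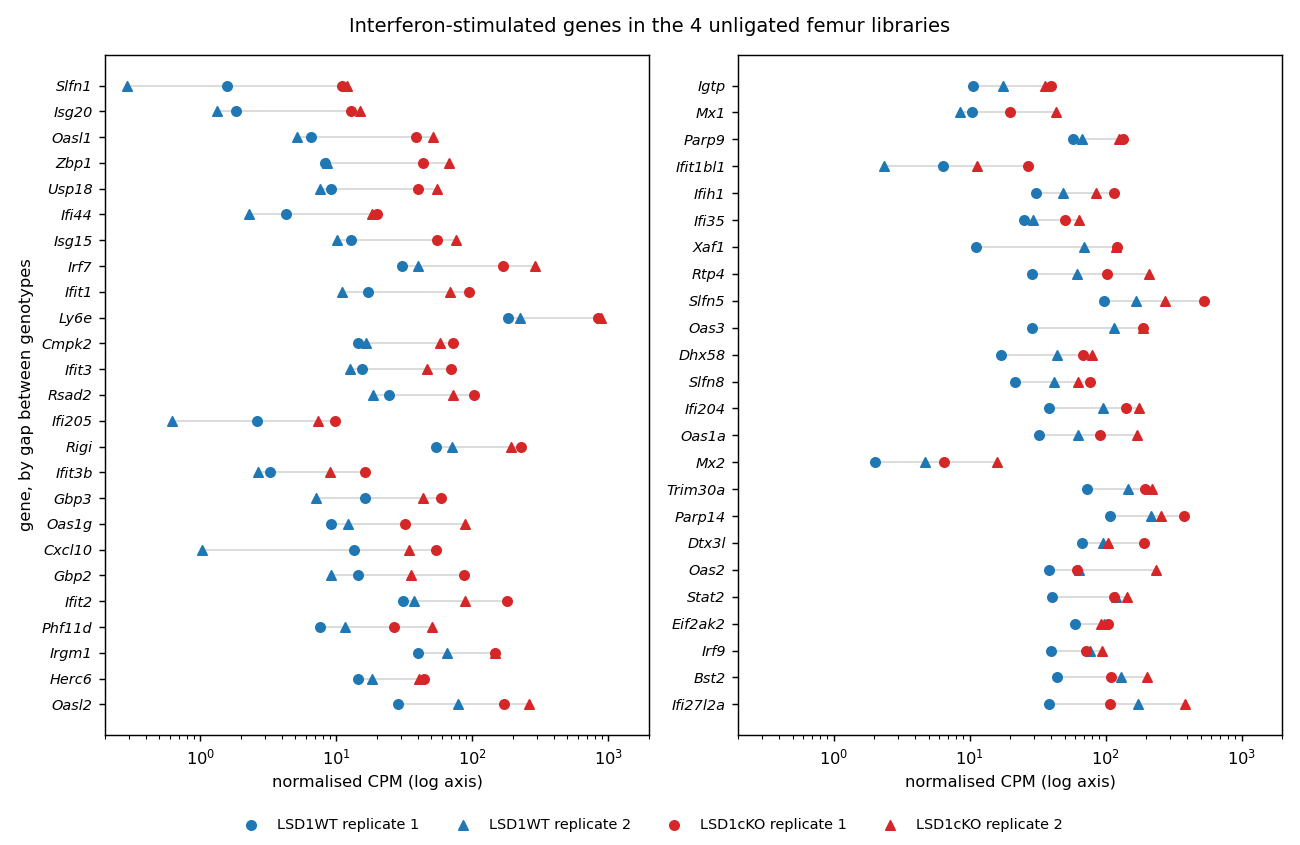
Normalised CPM on a log axis of 49 of the 50 interferon-stimulated genes in the 4 unligated femur libraries, ordered by the separation between genotypes from top left to bottom right. Blue symbols are LSD1WT, red symbols LSD1cKO, circles replicate 1 and triangles replicate 2. In 43 of the 49 genes both red symbols lie to the right of both blue symbols, and the 6 exceptions are at the foot of the right panel.

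The interferon genes themselves were at or near 0. Ifna2, Ifna4 and Ifng had no count in any of the 4 libraries, which allows up to 0.107 to 0.124 CPM, and Ifnb1 was at 0.0382 and 0 CPM in LSD1WT and 0 and 0.11 CPM in LSD1cKO, all at or below that limit. The receptor genes overlapped between genotypes, with Ifnar1 at 184 and 328 CPM in LSD1WT and 267 and 210.3 CPM in LSD1cKO and Ifnar2 at 32.0 and 97.1 against 37.4 and 36.6 CPM. Both LSD1cKO libraries of these 2 genes lay inside the LSD1WT range. Socs1, a feedback inhibitor of JAK kinases that interferon induces, was at 1.72 and 1.53 CPM in LSD1WT and 3.81 and 5.46 CPM in LSD1cKO, at least 2-fold above both. Of the 12 genes tested on this list 3 were above both LSD1WT libraries (all genes 9.82%) and 4 were inside their range (30.1%).

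Osteoclast genes gave opposite pictures against the 2 LSD1WT libraries. The summed level of 18 bone-resorbing effectors was 44898 and 2658 CPM in LSD1WT replicates 1 and 2 and 36256 and 16215 CPM in LSD1cKO. None of the 18 was higher in the LSD1cKO mean than in LSD1WT replicate 1, and 17 of 18 were higher than in replicate 2. In 13 of the 18 both LSD1cKO libraries were inside the LSD1WT range, where 30.1% of all genes were. The median log2 fold change was 0.14 with both LSD1WT libraries, 2.92 without replicate 1 and -0.66 without replicate 2 of the unligated femur, so that the sign of this list's difference rests on which LSD1WT library is used. In these bulk cultures fewer cells of a type and less of its RNA per cell cannot be told apart.

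Ctsk was at 7875 and 17.1 CPM in LSD1WT and 3939 and 2197 CPM in LSD1cKO. Acp5, the gene of tartrate-resistant acid phosphatase, was at 7677 and 26.1 against 5778 and 2403 CPM, and Mmp9 at 17607 and 74.4 against 16257 and 5339.7 CPM. In all 3 genes LSD1WT replicate 1 was highest, followed by LSD1cKO replicate 1 and then LSD1cKO replicate 2, with LSD1WT replicate 2 lowest by a wide margin. Slc9b2, a sodium-proton exchanger gene of osteoclasts, was at 763 and 3.06 against 319 and 267 CPM, and it was the only effector called without the LSD1WT replicate 2 libraries, lower in LSD1cKO with a log2 fold change of -1.37 (adjusted p = 0.0234, edgeR). Plekhm1, which serves lysosome trafficking at the ruffled border, was the only effector below both LSD1WT libraries, at 245 and 269 CPM in LSD1WT and 218 and 155 CPM in LSD1cKO (log2 fold change -0.46 ± 0.22).

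The transcription factors of osteoclast differentiation were also highest in LSD1WT replicate 1 or LSD1cKO replicate 1 and lowest in LSD1WT replicate 2 in most cases. Their summed level was 4786 and 871 CPM in LSD1WT and 4520.2 and 2694 CPM in LSD1cKO. Nfatc1, the master regulator, was at 810.2 and 94.2 CPM in LSD1WT and 759 and 349 CPM in LSD1cKO, and Prdm1, which encodes the repressor BLIMP1, at 239.6 and 12.6 against 210.5 and 95.3 CPM. All 12 were higher in the LSD1cKO mean than in LSD1WT replicate 2, and 3 of 12 were higher than in replicate 1. Among fusion genes Dcstamp was at 436 and 1.12 CPM in LSD1WT and 288 and 198 CPM in LSD1cKO, and Atp6v0d2 at 2104 and 11.7 against 1378 and 808 CPM.

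The receptor of RANKL, Tnfrsf11a, was at 303 and 149.7 CPM in LSD1WT and 295 and 224 CPM in LSD1cKO, inside the LSD1WT range, and the M-CSF receptor gene Csf1r at 1522 and 2765 against 2078 and 841 CPM. Of the 19 receptors and adaptors of osteoclast precursors 4 were above both LSD1WT libraries (all genes 9.82%) and none was below both (8.59%). Pirb, an inhibitory receptor for MHC class I, had the highest fold change among these 4, at 250.4 and 159.8 CPM in LSD1WT and 463 and 476 CPM in LSD1cKO. It was also called without the LSD1WT replicate 2 libraries (log2 fold change 0.92, adjusted p = 0.0464, edgeR). Pirb belongs to a family of similar Pira genes, among which reads may be split.

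The subunits of the V-ATPase, the proton pump that osteoclasts use to acidify bone, and of the respiratory chain showed the same dependence on the library. V-ATPase subunits summed to 13988 and 3819.8 CPM in LSD1WT and 10403 and 7157 CPM in LSD1cKO, and 12 of the 17 tested lay inside the LSD1WT range (all genes 30.1%). Nuclear-encoded subunits of oxidative phosphorylation summed to 15024 and 5275 CPM in LSD1WT and 9638 and 10351 CPM in LSD1cKO, with 60 of 74 inside the LSD1WT range (all genes 30.1%). Lower values than in LSD1WT replicate 1 and higher values than in replicate 2 were thus found in both lists.

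**Figure D3:**
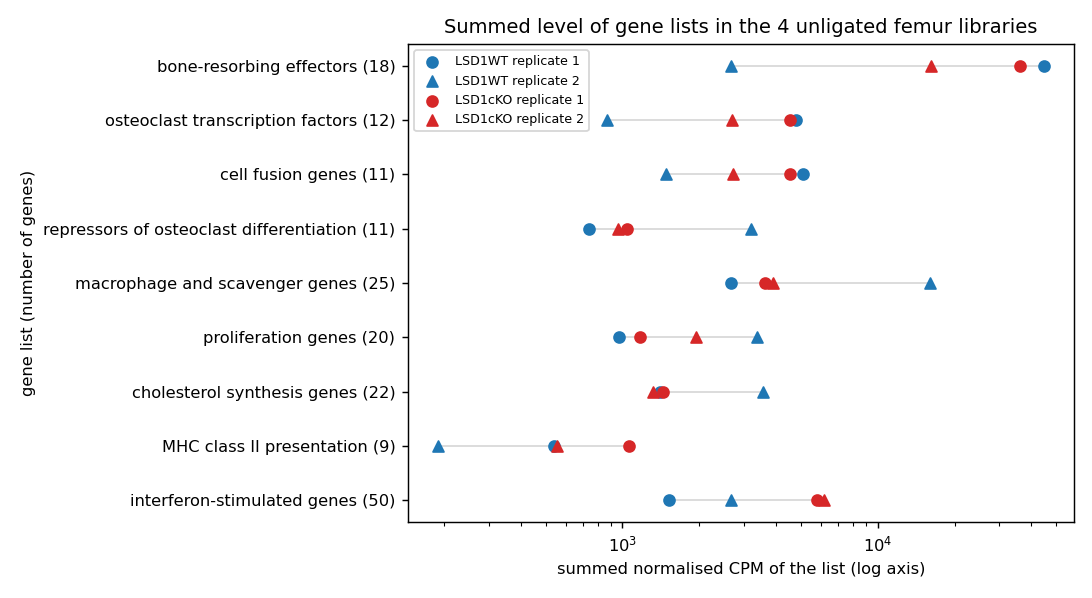
Summed normalised CPM on a log axis of 9 gene lists in the 4 unligated femur libraries, with the number of list genes in parentheses. Blue symbols are LSD1WT, red symbols LSD1cKO, circles replicate 1 and triangles replicate 2. For the bone-resorbing effectors both LSD1cKO sums (36256 and 16215) lie between the LSD1WT sums (44898 and 2658), and for the interferon-stimulated genes both lie above.

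Repressors of osteoclast differentiation and macrophage genes were in the reverse order. The 11 repressors summed to 738 and 3188 CPM in LSD1WT and 1038 and 963 CPM in LSD1cKO. Irf8, a transcription factor that holds back osteoclast differentiation, was at 29.0 and 173 CPM in LSD1WT and 49.3 and 57.2 CPM in LSD1cKO. Id1, an inhibitor of basic helix-loop-helix factors, was the only repressor below both LSD1WT libraries, at 2.83 and 50.0 CPM in LSD1WT and 2.71 and 1.25 CPM in LSD1cKO. All 11 were higher in LSD1WT replicate 2 than in the LSD1cKO mean, and 8 of 11 were higher in the LSD1cKO mean than in LSD1WT replicate 1.

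Macrophage and scavenger genes summed to 2663 and 16029 CPM in LSD1WT and 3629 and 3884 CPM in LSD1cKO. Stab1 was at 150.3 and 4237 CPM in LSD1WT and 169.6 and 324 CPM in LSD1cKO. Mrc1, the mannose receptor gene, was at 88.6 and 1958 CPM in LSD1WT and 138 and 92.8 CPM in LSD1cKO, and Adgre1, which encodes the F4/80 antigen, at 194 and 1342 against 489 and 405 CPM. In 15 of 24 genes both LSD1cKO libraries were inside the LSD1WT range (all genes 30.1%), 23 of 24 were higher than in LSD1WT replicate 1 and 4 of 24 higher than in replicate 2. Above both LSD1WT libraries were 3 of the 24 (all genes 9.82%) and below both 0 (8.59%). The 3 were Axl, a receptor tyrosine kinase of apoptotic cell uptake (11.1 and 21.0 CPM in LSD1WT, 36.5 and 49.2 CPM in LSD1cKO), Fcgr4 (12.5 and 29.4 against 44.8 and 52.2 CPM) and Clec7a (69.8 and 49.7 against 94.5 and 73.5 CPM). The list's median log2 fold change was -0.96 with all libraries and 0.82 without both femur LSD1WT replicate 2 libraries. In that fit Axl was at 1.95, Fcgr4 at 1.97 and Siglec1 at 2.19. The cell types behind the sums of this list were not resolved in bulk RNA.

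**Figure D4:**
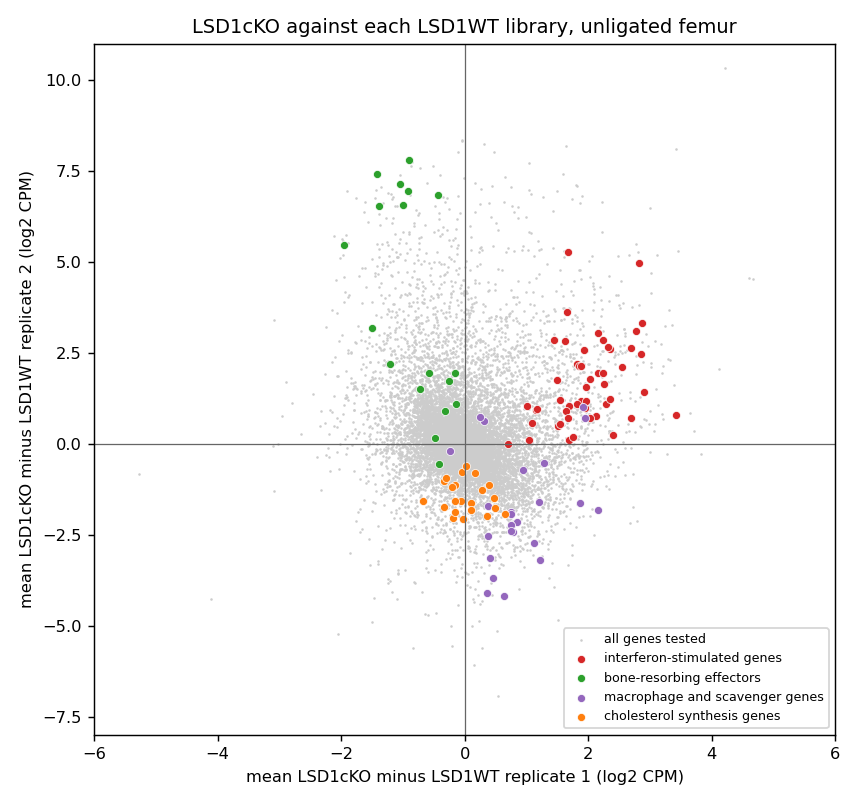
Mean log2 CPM of the LSD1cKO libraries minus LSD1WT replicate 1 (horizontal) and minus LSD1WT replicate 2 (vertical) for the 15425 genes tested (grey) and 4 lists (colours). Red interferon-stimulated genes lie to the right of and above the zero lines, with 50 of 50 above 0 against each LSD1WT library, green bone-resorbing effectors lie at the upper left, purple macrophage genes and orange cholesterol genes mostly below the horizontal line.

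Cholesterol synthesis genes were lower in LSD1cKO than in LSD1WT replicate 2 and near the level of replicate 1. The 22 genes summed to 1403 and 3542 CPM in LSD1WT and 1437 and 1315 CPM in LSD1cKO. All 22 were lower in the LSD1cKO mean than in LSD1WT replicate 2, whereas 10 were higher and 12 lower than in replicate 1. Both LSD1cKO libraries were below both LSD1WT libraries in 9 genes, where 8.59% of all genes were, and none was above both (all genes 9.82%). At an unadjusted p under 0.05 in edgeR 10 were lower, where 1.34% of all genes were. The median log2 fold change was -0.98, and it was -1.45 without LSD1WT replicate 1 and -0.03 without replicate 2.

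Hmgcs1, the synthase gene of the mevalonate pathway, was at 183 and 336 CPM in LSD1WT and 143 and 90.9 CPM in LSD1cKO. Insig1, a sterol sensor gene, was at 146 and 383 against 102 and 130.3 CPM. Both were below both LSD1WT libraries, by 1.27-fold (Hmgcs1) and 1.12-fold (Insig1) between the nearest libraries. Neither DESeq2 nor edgeR without the LSD1WT replicate 2 libraries called a gene of this list.

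Of the 19 genes tested of lipid storage and of the nuclear receptors LXR and PPARG, 16 were higher in LSD1WT replicate 2 than in replicate 1. Cd36, a fatty acid transporter gene, was at 79.5 and 1403 CPM in LSD1WT and 58.7 and 202 CPM in LSD1cKO, and Apoe at 398 and 1718 against 495 and 198 CPM. Rxra, the common partner of these receptors, was the only member below both LSD1WT libraries, at 25.7 and 169 CPM in LSD1WT and 24.1 and 20.6 CPM in LSD1cKO. Fabp5, a fatty acid binding protein gene, was the only one above both. Among eicosanoid genes, Alox5, which encodes arachidonate lipoxygenase, was at 20.6 and 9.11 CPM in LSD1WT and 40.7 and 29.3 CPM in LSD1cKO, and Ptgs2, the cyclooxygenase gene, was lower in abundance at 0.420 and 0.248 against 1.21 and 1.43 CPM, both above both LSD1WT libraries. Of 14 genes of this list 3 were above both (all genes 9.82%) and 7 inside the range (30.1%).

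Among 18 transporters of the ABC family for drugs and lipids, 4 were above both LSD1WT libraries (all genes 9.82%) and 8 were inside the range (30.1%). Abcg2, a multidrug exporter gene, was at 5.92 and 13.3 CPM in LSD1WT and 23.8 and 22.1 CPM in LSD1cKO, and it was called without the LSD1WT replicate 2 libraries (log2 fold change 1.97, adjusted p = 0.0173, edgeR). Abcc2, another exporter gene of organic anions, was at 0.840 and 0.331 against 3.56 and 2.79 CPM. Abca1, the cholesterol exporter gene, overlapped at 123 and 157 against 186 and 76.3 CPM.

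Of 17 inflammatory cytokine and enzyme genes 5 were above both LSD1WT libraries (all genes 9.82%), none was below both and 3, Acod1, Ptgs2 and Nos2, were at least 2-fold above both (all genes 1.81%), with a median log2 fold change of 0.56, 1.09 without LSD1WT replicate 1 and 1.07 without replicate 2. Il1rn, the gene of the interleukin-1 receptor antagonist, was at 52.3 and 4.43 CPM in LSD1WT and 176 and 144 CPM in LSD1cKO, at least 2-fold above both LSD1WT libraries, which themselves differed widely. Nlrp3, the inflammasome sensor gene, was at 13.7 and 127 against 35.8 and 38.0 CPM, inside the LSD1WT range, and Il1b was under 1 CPM in all 4 libraries, at 0.535 and 0.538 against 0.178 and 0.880 CPM. Of 17 genes of the inflammasome and interleukin-1 list 3 were above both LSD1WT libraries (all genes 9.82%) and none below both (8.59%). Acod1, whose enzyme makes itaconate, was at 3.47 and 1.24 CPM in LSD1WT and 9.27 and 18.5 CPM in LSD1cKO. Tnf overlapped at 4.96 and 17.1 against 4.85 and 15.9 CPM, while Il6, Il12b and Il23a did not pass the filter on low counts.

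Of 16 chemokine genes 3 were above both LSD1WT libraries (all genes 9.82%) and none was below both (8.59%). Cxcl16, a transmembrane chemokine gene, was at 52.0 and 37.4 CPM in LSD1WT and 133 and 161 CPM in LSD1cKO. Ccl5 was at 1.15 and 0.166 against 3.63 and 7.15 CPM, and Cxcl9 was low at 0.267 and 0 against 1.35 and 0.550 CPM. Ccl2, Ccl3 and Ccl4 were highest in LSD1WT replicate 2 and higher in LSD1cKO replicate 2 than in replicate 1. Ccl2 for example was at 11.1 and 106 CPM in LSD1WT and 8.66 and 54.1 CPM in LSD1cKO.

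Toll-like receptor genes were inside the LSD1WT range in 12 of 14 cases, where 30.1% of all genes were. Tlr3, the receptor for double-stranded RNA, was the only one above both LSD1WT libraries, at 7.25 and 17.7 CPM in LSD1WT and 34.7 and 26.4 CPM in LSD1cKO. Tlr7 was at 35.7 and 319 against 85.0 and 78.8 CPM and Tlr4 at 67.7 and 215 against 98.7 and 113 CPM, with LSD1WT replicate 2 highest in both. Without the LSD1WT replicate 2 libraries 4 of the Toll-like receptors were called higher in LSD1cKO (2.47% of all genes were called in that fit), which are Tlr3, Tlr5, Tlr6 and Tlr13. The list's median log2 fold change was -0.02, -0.44 without LSD1WT replicate 1 and 1.02 without replicate 2.

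Genes of MHC class II presentation were above both LSD1WT libraries in 5 of 9 cases (all genes 9.82%) and none was below both (8.59%). Ciita, the class II transactivator gene, was at 8.71 and 3.15 CPM in LSD1WT and 21.4 and 10.996 CPM in LSD1cKO. Cd74, the invariant chain gene, was at 244 and 76.9 against 684 and 302 CPM. The classical class II genes overlapped, with H2-Ab1 at 68.99 and 21.2 against 81.2 and 54.6 CPM and LSD1WT replicate 2 lowest. At an unadjusted p under 0.05 in edgeR 4 of the 9 genes were higher, where 3.61% of all genes were. The median log2 fold change was 0.59, against 1.84 without LSD1WT replicate 1 and 0.88 without replicate 2. Dendritic cell markers, which could accompany such genes, summed to 120.0 and 286 CPM in LSD1WT and 217 and 276 CPM in LSD1cKO, so that LSD1WT replicate 2 was highest, and their part in the class II values was not tested.

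The genes that the study displayed or measured were followed in the same 4 libraries. The study chose these lists on mandible libraries of the same series or for its own qRT-PCR of such cultures. They are therefore not independent evidence of direction. For Nlrp3, Hif1a and Acod1 its qRT-PCR included femur cultures of unligated mice. Of the 23 immune genes of its mandible heat map 14 were above both LSD1WT libraries (all genes 9.82%), none was below both and 8 were inside the range (30.1%), with a median log2 fold change of 1.30. Clec5a, an activating receptor gene of myeloid cells that is not on the interferon list, was at 29.3 and 32.3 CPM in LSD1WT and 72.7 and 115 CPM in LSD1cKO (adjusted p = 0.182, edgeR). Cx3cr1, the fractalkine receptor gene, went the other way, at 19.4 and 283 against 37.5 and 48.5 CPM.

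Of the 14 lipid genes of its heat map 4 were above both LSD1WT libraries and 5 were inside the range, where 9.82% and 30.1% of all genes were. Their median log2 fold change was 0.38 with both LSD1WT libraries, -0.01 without replicate 1 and 1.30 without replicate 2, so that it rests on which LSD1WT library is used. All 14 were higher in the LSD1cKO mean than in LSD1WT replicate 1, and 6 were higher than in replicate 2. Fads2, a fatty acid desaturase gene, was at 4.35 and 143 CPM in LSD1WT and 10.3 and 19.2 CPM in LSD1cKO. The list of genes measured by qRT-PCR leaves out Nfatc1, Dcstamp, Acp5 and Ctsk, which the study measured in cultures given TGF-β and TNF without RANKL. Of the 15 genes on this list 14 were tested, as Cyp3a11 had no count in the 4 libraries. Above both LSD1WT libraries were 7 of the 14 (all genes 9.82%), and 5 were inside the range (30.1%). On this qRT-PCR list Ifit2 was at 30.9 and 37.1 against 181 and 89.1 CPM and Oasl2 at 28.4 and 79.1 against 170.5 and 264 CPM, while Hif1a was at 86.4 and 146 against 117 and 98.4 CPM. By qRT-PCR of unligated femur cultures the paper reported Nlrp3 and Acod1 as significantly higher in LSD1cKO and Hif1a as unchanged. In the libraries compared here Acod1 was above both LSD1WT libraries. Nlrp3 was inside their range, above LSD1WT replicate 1 and below replicate 2, so that its direction rests on which LSD1WT library is used. Its log2 fold change was -0.93 with all libraries (DESeq2) and 1.43 without both femur LSD1WT replicate 2 libraries (edgeR). For Acod1 these values were 2.54 and 2.01.

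Proliferation genes were higher in LSD1WT replicate 2 than in replicate 1 and in the LSD1cKO mean in all 20 cases. They summed to 968 and 3361 CPM in LSD1WT and 1176 and 1936 CPM in LSD1cKO, and 14 of 20 were inside the LSD1WT range (all genes 30.1%). Mki67 was at 106 and 583 CPM in LSD1WT and 174 and 214 CPM in LSD1cKO, and Top2a at 116 and 463 against 161 and 200.2 CPM. In glycolysis and hypoxia genes 6 of 20 were inside the range, which is near the share of all genes (30.1%). Slc16a3, a lactate exporter gene, was at 17.4 and 22.9 CPM in LSD1WT and 56.2 and 50.4 CPM in LSD1cKO, at least 2-fold above both.

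Markers of other marrow cells were low except for a few transcripts. T and NK cell markers summed to 4.89 to 12.2 CPM over the 4 libraries and mast cell and basophil markers to 1.18 to 7.04 CPM. Hba-a1, Hbb-bs, Cd3d and Cd3e, the defining genes of red cells and T cells, were at or below 0.11 CPM. B cell markers summed to 19.1 and 115 CPM in LSD1WT and 29.0 and 39.9 CPM in LSD1cKO. Neutrophil markers summed to 196 and 192 CPM in LSD1WT and 197 and 293 CPM in LSD1cKO, of the 17 tested 6 were above both LSD1WT libraries (all genes 9.82%) and 2 below both (8.59%), and Cebpe, a granulocyte transcription factor gene, was at least 2-fold above both LSD1WT libraries at 1.83 and 0.580 against 4.81 and 4.54 CPM.

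Monocyte markers went in different directions. Vcan (versican) was at 17.7 and 2.90 CPM in LSD1WT and 146 and 35.6 CPM in LSD1cKO, above both LSD1WT libraries as Spn was, whereas F13a1 was at 16.0 and 406 against 29.0 and 12.6 CPM. Of the 17 monocyte markers tested 4 were above both (all genes 9.82%) and 2, Fn1 and Nr4a1, below both (8.59%). Stem and progenitor genes summed to 151 and 1631 CPM in LSD1WT and 527 and 475 CPM in LSD1cKO, so that LSD1WT replicate 2 was highest. Of the 11 tested 2, Ly6a and Gata2, were above both LSD1WT libraries (all genes 9.82%) and 1 was below both (8.59%). Kit and Cd34 overlapped, with Kit at 2.60 and 0.456 against 4.45 and 2.42 CPM. Megakaryocyte markers summed to 332 and 465 CPM in LSD1WT and 268 and 154 CPM in LSD1cKO, and Itga2b, a defining gene of that lineage, was at 3.25 and 1.49 against 2.53 and 3.04 CPM, inside the LSD1WT range.

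The ligated femur libraries come from other mice and share no library with the 4 compared here, so they show which of the separated genes were separated again. Of the 279 genes at least 2-fold above both LSD1WT libraries in the unligated femur, 198 (71%) were so in the ligated femur too, where 444 of all genes were (2.88%), and these 198 make up 44.6% of the 444. Of the 279 genes, 260 (93.2%) were above both LSD1WT libraries of the ligated femur by any margin, where 14.9% of all genes were, and none was below both. Of the 22 genes at least 2-fold below, 3 were so in the ligated femur, where 62 of all genes were (0.402%), while 10 (45.5%) were below both by any margin, where 19.4% of all genes were, and 1 was above both. In the mandible 156 of the 279 genes (55.9%) and 2 of the 22 were separated by at least 2-fold in the same direction, where 708 genes (4.59%) were above and 223 (1.45%) below. The mandible LSD1WT libraries, 1 of which carries a femur library name, were the closest pair of the series, so that separation by rank is met there by smaller differences.

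Kdm1a was the only gene with an adjusted p under 0.05 in the ligated femur (1 of 15425, 0.00648%, log2 fold change -2.03 ± 0.18, adjusted p = 0.0382, edgeR). Ly6a was at 4.79 and 12.9 CPM in ligated LSD1WT and 177 and 277 CPM in ligated LSD1cKO, a log2 fold change of 4.69 ± 0.57 (adjusted p = 0.0539). Gfi1b was at 4.07 and 0.257 and 38.4 and 47.3 CPM, and Slc6a4 at 7.86 and 0.359 and 85.6 and 90.9 CPM. All 12 genes of the higher group were at least 2-fold above both LSD1WT libraries in the ligated femur. Fn1 was the only gene of the lower group that overlapped there, at 0.938 and 7.95 CPM in LSD1WT and 2.22 and 0.877 CPM in LSD1cKO.

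**Figure D5:**
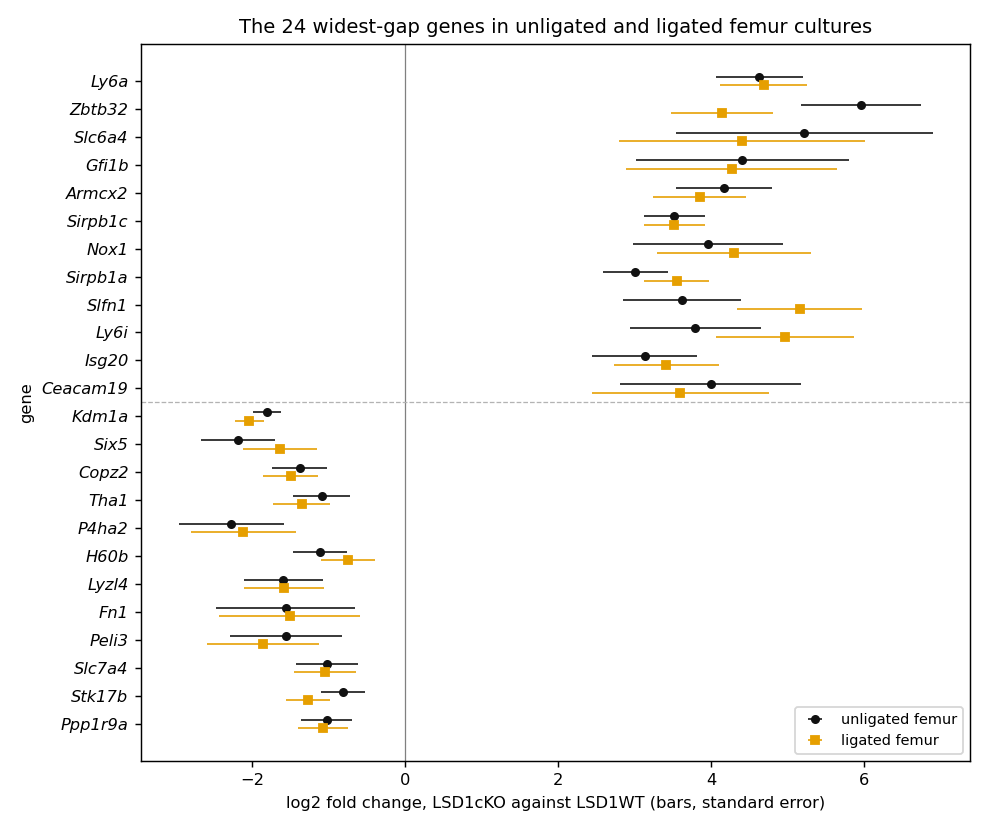
Log2 fold change of LSD1cKO against LSD1WT in the unligated (black circles) and ligated (orange squares) femur for the 24 genes with the widest separation in the unligated femur, with bars for the standard error of the edgeR fit (n = 2 and 2). The dashed line parts the genes chosen as higher from those chosen as lower, and each gene keeps its sign, as for Ly6a at 4.63 and 4.69.

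Interferon-stimulated genes were above both LSD1WT libraries in 48 of 50 cases in the ligated femur (all genes 14.9%), with a median log2 fold change of 1.94 there. Isg15 was at 6.37 and 18.9 CPM in ligated LSD1WT and 105 and 182 CPM in ligated LSD1cKO. Cholesterol synthesis genes were below both LSD1WT libraries in 18 of 22 cases in the ligated femur (all genes 19.4%), with a median log2 fold change of -0.76. The difference of the genotype effect between unligated and ligated femur was tested as an interaction, and 0 genes (0%) passed an adjusted p of 0.05 in edgeR (smallest adjusted p 0.999999), 53 genes had an unadjusted p under 0.05 (0.344%), and DESeq2 called 0. With 2 libraries per group and this spread a missed threshold does not show that the effects are alike. For Slfn1, as an example, the log2 fold changes were 3.62 ± 0.77 without and 5.16 ± 0.82 with ligatures.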

How the data were processed

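Gene counts of 12 bulk RNA-seq libraries were used as the authors deposited them, as whole read counts per gene in 1 table. Per the submitters' processing notes, reads were aligned with HISAT2 2.1.0 to GRCm39 and counted with featureCounts, and FastQC and edgeR are also named. The version of featureCounts, its strand setting and the annotation release are not given in the sources used here. Total counts were 21375805 to 32526751 per library. Single-library intervals were not given, and the limit of 3 counts per library covers counting error only.

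From the counts, a quasi-likelihood model was fitted with edgeR 4.0.16 (R 4.3.3, limma 3.58.1) over all 12 libraries as 6 conditions of 2, with TMM scaling and the default filter on low counts, which kept 15425 genes. LSD1cKO was compared with LSD1WT within the unligated femur, p values were adjusted by Benjamini-Hochberg over all genes tested with a threshold of 0.05, and CPM values are TMM-scaled. Log2 CPM used a prior count of 2. Separation was measured on that scale between the nearest libraries of the 2 genotypes. The code was tested on simulated data.

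Named genes were Kdm1a, up to 10 genes per direction past the threshold, the 12 genes per direction with the widest separation and at least 2 CPM in both libraries of the higher genotype, leaving out genes named only by a clone or accession, and members of 36 gene lists. The members, lists and the comparison itself were chosen with earlier results of these data known. Where the text says that a list gene was called without LSD1WT replicate 2, both femur LSD1WT replicate 2 libraries had been left out. Alternatives were DESeq2 1.42.0, 2 other scalings, 2 other filters, the 8 femur libraries or the 4 unligated libraries alone, limma voom with library quality weights, a replicate block, a relabelled mandible library and each library left out in turn. Results for a few list genes are not reported here.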

Additional observations from a re-analysis of the deposited data

How the results depend on the processing

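The number of genes past an adjusted p of 0.05 was 0 in the 12-library edgeR fit and 122 with DESeq2 (smallest adjusted p 5.83e-18). It was 24 of 27149 genes with no filter beyond 1 count, 23 of them higher in LSD1cKO. It was 396 without both femur LSD1WT replicate 2 libraries, a setting added after seeing the data that leaves LSD1WT with 1 library per femur condition. Leaving out single libraries gave 0 to 16 calls, with 13 without LSD1WT ligated replicate 1, 13 without LSD1WT ligated replicate 2, 16 without LSD1WT unligated replicate 1 and 0 without each of the others, where a lone library is assumed to vary like the other groups. RLE or upper quartile scaling, a mean of at least 10 counts, the 8 femur or the 4 unligated libraries alone, voom with library weights, the relabelled mandible library and a fold-change minimum all left 0 calls, and the cause of the differences in count was not tested. Within the 8 femur libraries the replicate numbers in the labels name different mice and pair nothing. Some ligated mice have a number that recurs on a mandible library, and the replicate block did not pair those libraries. With that block the 8 femur libraries gave 0 calls (419 higher and 53 lower at an unadjusted p under 0.05, against 347 and 54 without it). The correlation of the replicate differences of the genotypes was 0.224. The interaction with ligature had 0 calls under every alternative run.

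The counts of separated genes rest on both libraries of a genotype. Leaving out 1 unligated library, an alternative added after seeing the data, gave 3518 to 5512 genes above and 4022 to 5622 below, and 462 to 1896 at least 2-fold above and 153 to 968 at least 2-fold below. Without LSD1WT replicate 1 the 2-fold counts were 1896 and 968, and without LSD1WT replicate 2 they were 779 and 232, by construction larger than with 4 libraries. Under RLE scaling, upper quartile scaling and a mean of at least 10 counts the 2-fold counts were 259 to 294 above and 16 to 23 below. The number of genes above both libraries rose from 1515 to 1704 with upper quartile scaling and that below both went from 1325 to 1119, and the median log2 fold change of all genes was -0.05 with TMM and 0.01 with upper quartile scaling.

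Of 167 named genes whose libraries did not overlap, 3532 of the gene and alternative pairs kept their direction and side of the threshold, 134 passed the threshold newly and 1 reversed, which was Pgk1, a glycolysis gene, at -0.16 with all libraries, 0.037 without LSD1WT unligated replicate 1 and -0.26 without its replicate 2. The 167 genes were chosen by their separation in these same libraries, so that a kept direction was largely set beforehand. None passed the threshold with all libraries, so that none could lose a call. List medians moved by more than the replicate spread in 68 pairs and by less in 724. Without LSD1WT replicate 1 and without replicate 2 of the unligated femur respectively, the medians were 2.18 and -0.14 for osteoclast transcription factors, 2.89 and -0.38 for fusion genes, -1.48 and 0.45 for repressors, -1.66 and 0.79 for macrophage genes and -0.94 and 0.69 for proliferation genes.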

Other observations

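Further genes at least 2-fold above both LSD1WT libraries of the unligated femur fell outside the lists, and those named here were chosen after their values were seen. Paired immunoglobulin-like receptors, which set the activation of myeloid cells, were among them, with Lilra6 at 12.6 and 2.53 CPM in LSD1WT and 61.3 and 67.4 CPM in LSD1cKO, Pira12 at 14.97 and 3.40 against 75.4 and 62.5 CPM and Pira13 at 8.21 and 1.95 against 29.1 and 24.6 CPM. These genes are similar in sequence, and the split of reads among them is uncertain. C3, the central complement component, was at 67.8 and 7.74 CPM in LSD1WT and 359 and 222 CPM in LSD1cKO. Fgr, a Src family kinase gene of myeloid cells, was at 31.3 and 1.08 against 140.2 and 92.5 CPM. In these 5 genes LSD1WT replicate 2 was the lowest library and the LSD1cKO libraries were within 2-fold of each other.

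Clec4a1, Clec4a3 and Cd72 encode C-type lectin-like receptors of leukocytes. Clec4a1 was at 59.8 and 46.9 CPM in LSD1WT and 197 and 143 CPM in LSD1cKO, Clec4a3 at 71.2 and 41.9 against 184 and 143 CPM and Cd72 at 64.4 and 37.5 against 154 and 165 CPM. Members of the Ifi200 family, which hold DNA sensors, included Ifi209 at 26.3 and 19.0 against 127 and 199 CPM, Ifi211 at 10.6 and 13.7 against 44.3 and 55.3 CPM and Ifi213 at 3.78 and 1.45 against 13.4 and 34.7 CPM. H2-T24, a nonclassical MHC class I gene, was at 9.81 and 14.2 CPM in LSD1WT and 35.7 and 49.7 CPM in LSD1cKO. Besides the serotonin transporter gene Slc6a4, its family members Slc6a12 (16.0 and 0.207 against 44.3 and 53.0 CPM) and Slc6a13 (1.22 and 0.124 against 4.99 and 10.3 CPM), which encode transporters of betaine and GABA, were higher in both LSD1cKO libraries. Kdr, the gene of a receptor for vascular endothelial growth factor, was at 5.42 and 5.67 against 32.3 and 15.9 CPM, and Gpr141, an orphan receptor gene, at 10.04 and 11.02 against 43.7 and 47.2 CPM.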
